A study of Rattus norvegicus with 46 samples.

Results

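Passive loading of a paralysed leg was examined after 5 to 8 d in 4 rats of an experimental intensive care model, by comparing the loaded with the unloaded gastrocnemius of each rat. The arrays were those whose label gives this window, 8 of the 46 in the study, with 4 loaded and 4 unloaded legs. The other arrays cover 6 h to 4 d (26 arrays) and 9 to 14 d (12 arrays). All rats were female Sprague-Dawley rats under isoflurane, held at 37 °C, on a ventilator, and received α-cobrotoxin (a snake venom peptide that occupies the muscle acetylcholine receptor and so paralyses; 100 µg on the first day, then 250 µg per day). A motor-driven lever flexed the left ankle during 12 h of each day, 13.3 times a minute, and the opposite leg was not moved. Both legs therefore shared paralysis, anaesthesia and ventilation, and no untreated rat was measured. The labels do not give the exact duration of a rat within the window.

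One array was run on the proximal gastrocnemius of each leg, and its values are log2 expression values that the authors made with RMA. In these 8 arrays they ran from 2.11 to 14.35, and the array medians from 6.07 to 6.18. Legs were paired by label number, and a rat is named here by the number of its unloaded leg (41, 43, 53 or 55). That pairing is inferred. The labels of rats 41 and 43 end in 1 number that reads as a date and those of rats 53 and 55 in another, and what it dates is not stated. The muscle genes Acta1 (13.96 to 14.30) and Ckm (13.76 to 13.97) were high in all 8 legs. In RNA from whole muscle, fewer cells of a type and less RNA per cell cannot be told apart.

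Muscle without nerve activity and load loses contractile protein through ubiquitin ligases and the proteasome, and its fibres express acetylcholine receptor subunits along their whole length. Movement imposed from outside is sensed by the connective tissue around fibres, where TGF-beta signals and matricellular proteins such as Ccn2 drive matrix genes, and by integrins and Z-disc proteins of the fibre itself. Slow oxidative and fast glycolytic fibres carry different sets of myosin, troponin and calcium-handling genes, so the fibre mix of a sample is visible in its RNA.

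No gene passed the test for a difference between the legs over the 4 rats (limma with the rat as a block, Benjamini-Hochberg over 9289 genes, 0 genes at adjusted p under 0.05, 0%). At an unadjusted p under 0.05 there were 644 genes (6.93%), 272 of them higher (2.93%) and 372 lower (4.00%) in the loaded leg. The genes nearest to the threshold were C3h15orf48, Nthl1 and Tecr, the 3 with an adjusted p under 0.1 (0.0323%). By direction, 523 genes (5.63%) had the higher value in the loaded leg and 544 (5.86%) the lower one in 4 of 4 rats, and 3687 were higher in 2 rats and lower in the other 2. Rats differed in the size of their leg differences. The number of genes over 1.5-fold apart between the legs was 402 in rat 41, 1222 in rat 43, 403 in rat 53 and 763 in rat 55.

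The 4 rats did not share 1 pattern. Across the 9289 genes, which are not independent of each other, the leg differences of rats 53 and 55 correlated at r = 0.52. Those of rats 41 and 43 correlated at 0.08. Between the pairs, r ran from -0.28 (rats 41 and 55) to 0.04 (rats 43 and 53). The count of genes passing the test depended on rat 41: without it, 60 genes passed (0.646%), 15 higher and 45 lower. Without rat 43 there were 7, and without rat 53 or rat 55 there was 0. Rat 41 is thus the rat whose removal gave the most genes, and an adjusted p without it is no independent support. With array weights estimated by limma, 1182 genes passed, and rat 53 then held 73.8% of the weight of the 4 rats. With the rat as a block, both legs of a rat had the same weight (4.73 in rat 53). Such weights follow how near a rat's leg difference lay to its window's mean, and do not measure array quality. Testing that mean with them favours passing genes, so the count is no support. With the slow-fibre mean of each leg as a covariate, 5 genes passed (0.0538%), namely Pla2g7, Nthl1, Mfap4, C3h15orf48 and Itga7.

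The gene with the largest difference in 1 direction in all rats was C3h15orf48 (probe set 10839307), which encodes a small mitochondrial protein related to the respiratory chain subunit Ndufa4. In rats 41, 43, 53 and 55 its log2 value was 6.62, 6.10, 6.28 and 6.87 in the unloaded leg and 8.21, 8.00, 7.38 and 8.29 in the loaded leg. Every loaded leg lay above every unloaded leg, as for 43 of the 9289 genes (0.463%). The difference was 1.50 (SE 0.28, 2.84-fold, adjusted p = 0.0849). Ndufa4 itself differed by 0.15 (SE 0.07, adjusted p = 0.724).

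Tecr, an enzyme of very-long-chain fatty acid elongation, was higher in the loaded leg by 0.29, 0.21, 0.58 and 0.60 in rats 41, 43, 53 and 55 (mean 0.42, SE 0.08, adjusted p = 0.0885). Nthl1, a DNA glycosylase of base excision repair, was lower by a similar amount in each rat, with differences of -0.42, -0.35, -0.30 and -0.59 (mean -0.42, SE 0.08, adjusted p = 0.0849). Loaded and unloaded legs overlapped for both. Among genes of 1 direction in all 4 rats, 17 higher (0.183%) and 16 lower (0.172%) differed by at least 1.5-fold. The 17 included the matrix and TGF-beta genes Mfap4, Fbln2, Cilp, Col1a1, Bgn, Lox, Ccn2 and Tgfb2, the collagen-binding integrin Itga11, the retinol dehydrogenase Rdh16 and the transporter Slc16a6.

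**Figure D1:**
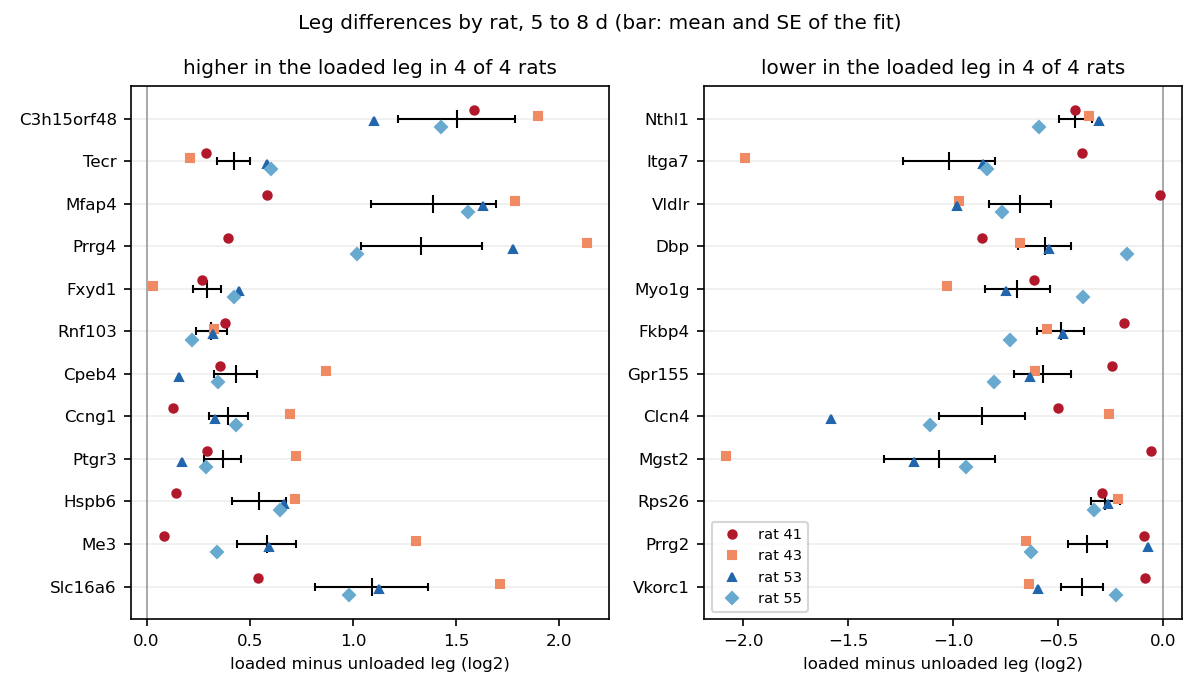
Leg differences (loaded minus unloaded, log2) of the 24 genes with the smallest p among those of 1 direction in 4 of 4 rats, with the 12 that were higher on the left and the 12 that were lower on the right. Each symbol is 1 rat, and the bar is the mean and standard error of the fit. C3h15orf48 lies at 1.10 or above in every rat, while rat 41 lies nearest to 0 for Mfap4, Prrg4, Itga7, Vldlr and Mgst2.

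Some lists of connective tissue genes had medians above 0 in the loaded leg and others did not. Mfap4, a glycoprotein of elastic microfibrils, stood at 6.36, 7.37, 6.33 and 6.84 in the unloaded and at 6.95, 9.15, 7.96 and 8.39 in the loaded legs of rats 41, 43, 53 and 55. The loaded leg of rat 41 was the only loaded leg below the highest unloaded leg. The difference was 1.39 (SE 0.30, 2.62-fold, adjusted p = 0.161), and it passed the test without rat 41 (1.66, adjusted p = 0.0253).

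Fbln2, the matrix glycoprotein fibulin 2, measured 6.99, 7.53, 7.59 and 7.74 in the unloaded and 8.06, 8.45, 8.16 and 8.23 in the loaded legs. The groups did not overlap, and the difference was 0.76 (SE 0.19, 1.70-fold, adjusted p = 0.204). Ccn2, connective tissue growth factor, was also separated between the groups, at 7.60 to 7.95 in unloaded and 8.26 to 8.78 in loaded legs. Its difference was close in the 4 rats (0.83, 0.58, 0.66 and 0.54), and the mean of 0.65 did not pass (SE 0.35, adjusted p = 0.757), with a standard error that pools the spread of all 23 rats of the study.

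By list, 7 of the 20 measured genes of elastic fibres and matrix glycoproteins were higher in all 4 rats and 0 were lower. Beside Mfap4 and Fbln2 these included Ltbp4, which holds latent TGF-beta in the matrix (0.45, SE 0.17), Mfap5 (0.44, SE 0.21), Fbn1, fibrillin 1 (0.35, SE 0.25), and Eln, elastin (0.18, SE 0.11). The median difference of the list was 0.21, against 0.00 for all genes. Of 11 collagens, 4 (36.4%) were higher in all rats and 0 lower, with a median of 0.15. Col1a1 was the largest at 0.49, 0.19, 1.51 and 0.68, and Col3a1 was split, at -0.13 and -0.12 in rats 41 and 43 and at 0.19 and 0.48 in rats 53 and 55. Lox, which cross-links collagen and elastin, was higher in all 4 rats (mean 0.61, SE 0.35). The list of 18 collagen processing enzymes it belongs to had a median of -0.03. In all 4 rats, 3 of its genes were higher (16.7%) and 1 lower (5.56%, near the 5.86% of all genes). Of 17 matrix proteases and inhibitors 4 (23.5%) were higher in all rats and 0 lower, with a median of 0.07 that was -0.01 without rat 41. Of 13 small proteoglycan and tendon genes 2 (Bgn and Cilp, 15.4%) were higher in all rats and 0 lower. The list's median was 0.29, 0.74 and 1.01 in rats 41, 53 and 55 and -0.74 in rat 43.

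Among 19 genes of the TGF-beta response, 8 (42.1%, against 5.63% of all genes) were higher in all rats and 0 lower (median 0.20). They were the ligand Tgfb2 (0.23, 1.68, 0.54 and 0.35), the matricellular genes Ccn2, Ccn4 and Ccn5, the signal transducer Smad3, the inhibitor Smad7 (0.32, 0.20, 0.28 and 0.30), and Id1 and Id3, direct targets of BMP signals (means 0.38 and 0.38). Pmepa1, another target and inhibitor of this pathway, was split at -0.16, 1.12, -0.43 and 0.18. No gene of the collagen, elastic fibre and TGF-beta lists passed the test over the 4 rats. All lists were chosen with earlier results of these data known, so a share above that of all genes is no independent support.

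Some markers of connective tissue cells were higher too. Of 9 fibroblast markers, 3 (Pi16, Mfap5 and Smoc2) were higher in all rats (33.3%, against 5.63% of all genes). The mean of the list ran from 7.86 to 8.22 in unloaded and from 8.15 to 8.41 in loaded legs. The fibroblast genes Dcn (-0.05, SE 0.11) and Pdgfra (0.10, SE 0.15) differed little. The median over the 5 measured tendon markers was higher in the loaded leg of rats 41, 53 and 55 (1.20, 0.97 and 1.19) and lower in that of rat 43 (-1.78). Their mean ran from 6.28 to 7.95 in unloaded and from 6.12 to 8.24 in loaded legs, with Tnmd and Kera below the array medians. The part of tendon or fibroblast content in the matrix differences was not tested.

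Of the genes lower in the loaded leg of all 4 rats, Itga7, the α7 chain of the laminin-binding integrin of muscle fibres, had the second smallest p and measured 9.86, 9.94, 8.65 and 8.96 in the unloaded and 9.48, 7.94, 7.79 and 8.12 in the loaded legs. It was lower in the loaded leg of every rat, most in rat 43, and the groups overlapped through the loaded leg of rat 41. The difference was -1.02 (SE 0.22, 2.03-fold lower, adjusted p = 0.161). Of the 12 measured integrins and laminins it was the only 1 lower in all 4 rats (8.33%, near the 5.86% of all genes). Itga6, Itga11 and Lamc1 were higher in all 4 (25.0%, against 5.63% of all genes).

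Vldlr, a lipoprotein receptor, was lower by -0.97, -0.98 and -0.77 in rats 43, 53 and 55 and by -0.01 in rat 41 (mean -0.68, SE 0.15, adjusted p = 0.161). Clcn4, a chloride-proton exchanger, was lower in all rats (-0.50, -0.26, -1.58 and -1.11, adjusted p = 0.194). Clcn1, the chloride channel that stabilises the resting potential of muscle fibres, was lower too (-0.79, -0.40, -0.65 and -0.25, adjusted p = 0.409). Of 23 genes of calcium handling and excitation it was the only 1 lower in all 4 rats, and 2 were higher. These shares (4.35% and 8.70%) were near those of all genes (5.86% and 5.63%). Slc51a, a subunit of an organic solute transporter, differed most in rat 43, where it read 10.15 in the unloaded and 7.25 in the loaded leg, and its mean difference was -1.22 (SE 0.34, adjusted p = 0.280). The microsomal glutathione transferases Mgst1 and Mgst2 were lower by -0.06 in rat 41 and by -0.37 to -2.08 in the other rats.

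Rbm3, which binds RNA and responds to mild cooling, read 10.46, 10.49, 10.56 and 10.39 in the loaded legs of rats 41, 43, 53 and 55, and 10.60, 7.10, 9.04 and 9.60 in the unloaded legs. The 4 loaded legs thus lay close together, while the unloaded legs spread widely and that of rat 41 was the highest of all 8. The mean difference was 1.39 (SE 0.41, adjusted p = 0.291), and 1.90 without rat 41 (adjusted p = 0.0378). Cirbp, the other cold-inducible RNA-binding protein, was higher in all 4 rats (0.37, 1.48, 0.54 and 0.13, adjusted p = 0.346).

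Chaperone genes were more often lower than higher in all 4 rats. Of 37 cytosolic and mitochondrial chaperones and co-chaperones, 13 (35.1%, against 5.86% of all genes) were lower in all 4 rats and 5 (13.5%, against 5.63%) higher. At an unadjusted p under 0.05, 12 of the 37 had a negative difference, as had 4.00% of all genes. The 13 included the heat-inducible Hsp90aa1 (-0.23, -1.50, -0.12 and -0.19) and Hsph1 (-0.35, -1.52, -0.24 and -0.20), the Hsp70-Hsp90 adaptor Stip1 (-0.32, -1.05, -0.32 and -0.22), and Hspd1 and Hspe1, the mitochondrial chaperonin and its partner. Rat 43 had the largest difference for Hsp90aa1, Hsph1, Stip1 and Hspd1. Fkbp4, an Hsp90 partner of steroid receptors, measured 8.72, 9.17, 9.13 and 9.46 in unloaded and 8.53, 8.61, 8.65 and 8.73 in loaded legs (difference -0.49, SE 0.11, adjusted p = 0.186). Against this direction, the small heat shock protein Hspb6 was higher in all rats (0.14, 0.72, 0.67 and 0.65, adjusted p = 0.194). The median of the list was -0.15. By rat it was -0.07, -0.48, -0.08 and -0.07 in rats 41, 43, 53 and 55, where all genes had 0.05, 0.02, -0.01 and -0.07.

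Chaperones of the endoplasmic reticulum, where secreted and membrane proteins fold, were lower in 3 rats and not in rat 41. Hspa5, the luminal Hsp70 also called BiP, measured 11.34, 12.30, 12.17 and 12.21 in the unloaded legs of rats 41, 43, 53 and 55 and 11.64, 11.16, 11.67 and 11.68 in the loaded legs. The unloaded leg of rat 41 was low, at the level of the loaded legs, and the other 3 unloaded legs were above all loaded legs. Hsp90b1, the luminal Hsp90, went the same way, with differences of 0.28, -1.31, -0.64 and -0.68. Of the 26 measured genes of this list, 17 were lower in the loaded legs of rats 43, 53 and 55, as were 16.9% of all genes. Of these 17, 15 were higher in the loaded leg of rat 41, as were 1023 of the 1567 such genes among all tested.

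Over all 4 rats 0 of the 26 passed. Without rat 41, Hsp90b1 (-0.88), Hspa5 (-0.72), Hyou1 (-0.70), the disulphide isomerases Pdia4 (-0.92) and Pdia6 (-0.69), and the co-chaperones Sdf2l1 (-1.15) and Dnajb11 (-0.52) fell, with adjusted p from 0.0162 (Hsp90b1) to 0.0418 (Pdia4). In the same comparison the glycoprotein folding and glycosylation genes Uggt1, Ddost and Ostc fell as well. Of the 60 genes that passed without rat 41, 35 were lower in the other rats and higher in rat 41, a count that leaving out rat 41 favours. The stress sensors and regulators Atf6 (0.12), Eif2ak3 (0.11) and Ppp1r15a (0.10) were not among the 60, and their differences were positive over the 4 rats. These means include rat 41, in which the list's median was 0.23. Other regulators went the other way: Atf6b was lower in all 4 rats (mean -0.11), and Xbp1 was lower in rats 43, 53 and 55.

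**Figure D2:**
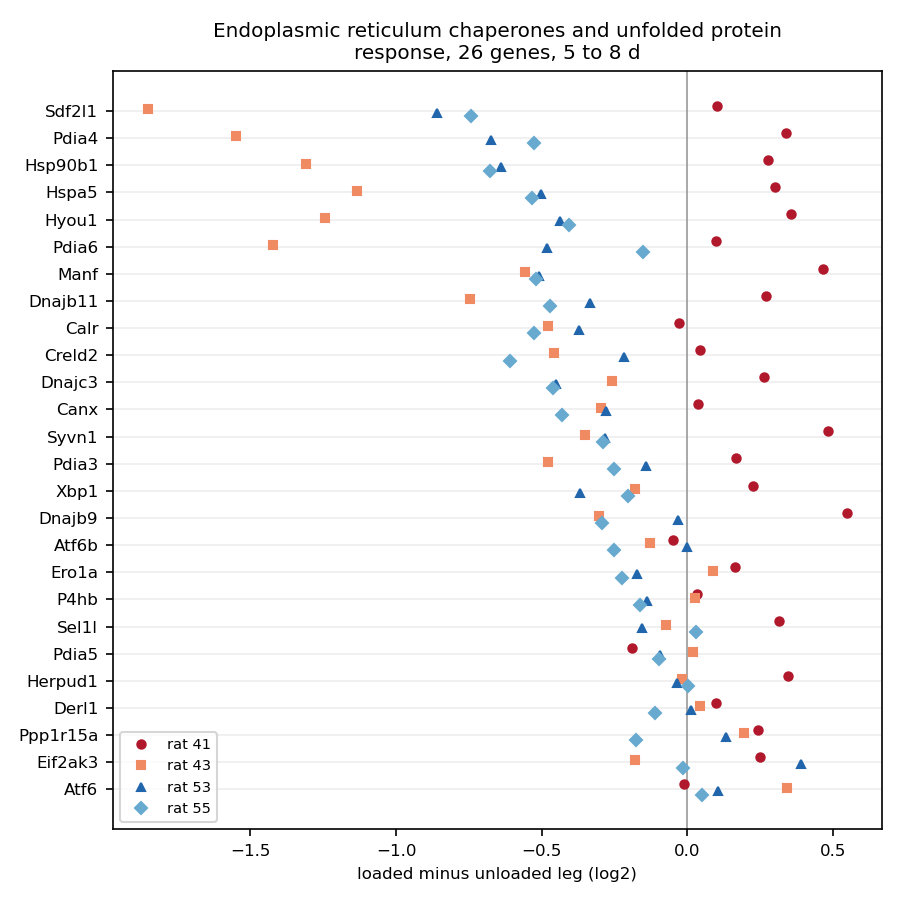
Leg differences (loaded minus unloaded, log2) of the 26 measured genes of the endoplasmic reticulum list, ordered by their mean without rat 41. Each symbol is 1 rat. Rats 43, 53 and 55 lie below 0 for the upper 17 genes, and rat 41 lies above 0 for 15 of those, against 1023 of the 1567 genes of all tested that are lower in those 3 rats.

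Promoter sequences are shown for the members of this list that hold the endoplasmic reticulum stress element ERSE, the motif through which Atf6 and Xbp1 act on such genes. The search covered the 250 bases before the RefSeq start of each gene (build GRCr8), on both strands, for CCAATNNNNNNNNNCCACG. This motif does not overlap the others searched. It was found in 7 of the 21 promoters (33.3%) available for 20 of the 26 genes, and in 22 of 33469 promoters of all genes (0.0657%). Hsp90b1 also holds a match at bases -176 to -158 from the start, and only its match at -72 to -54 is shown. Each line runs 5′ to 3′ on the strand of the gene, and capitals mark the fixed letters of the motif, which read CGTGG and ATTGG where it lies on the other strand.
Hspa5, chr3:38452953-38453011, plus strand: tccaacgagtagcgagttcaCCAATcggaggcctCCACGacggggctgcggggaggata
Hsp90b1, chr7:23012327-23012385, minus strand: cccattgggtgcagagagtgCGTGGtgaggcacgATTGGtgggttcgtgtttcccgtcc
Calr, chr19:40213117-40213173, plus strand: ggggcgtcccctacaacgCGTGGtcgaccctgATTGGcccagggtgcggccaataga
Canx, chr10:35158049-35158107, minus strand: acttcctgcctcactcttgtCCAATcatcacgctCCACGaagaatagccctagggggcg
Creld2, chr7:121789219-121789277, plus strand: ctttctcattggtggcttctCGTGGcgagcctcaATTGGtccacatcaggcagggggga
Dnajc3, chr15:102432514-102432572, plus strand: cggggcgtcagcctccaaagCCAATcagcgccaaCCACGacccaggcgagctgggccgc
Xbp1, chr14:84604538-84604596, plus strand: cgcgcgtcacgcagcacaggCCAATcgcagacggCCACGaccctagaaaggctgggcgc

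All 7 of these genes were lower in the loaded legs of rats 43, 53 and 55, as were 17 of the 26 listed genes (65.4%) and 16.9% of all genes. Whether the motif goes with this direction was not tested. The differences of Calr, calreticulin, were -0.48, -0.37 and -0.53 in rats 43, 53 and 55 and -0.03 in rat 41. The others stood between 0.04 and 0.30 in rat 41. The related element ERSE-II (ATTGGNCCACG) was found in Hyou1 and Herpud1, and of these Hyou1 was lower in rats 43, 53 and 55 (-1.24, -0.44 and -0.41) and Herpud1 was near 0 (-0.02, -0.04 and 0.00). A match of letters describes the window and shows no binding. The heat shock element GAANNTTCNNGAA was found in none of the 21 promoters. It was found in 4 of 32 promoters of the cytosolic and mitochondrial list (12.5%), those of Hspa8, Hsph1, Hspd1 and Hspe1, and in 0.663% of all promoters. Hspd1 and Hspe1 lie head to head, and the same stretch serves both, shown here for Hspe1 and beside it for Hsph1.
Hspe1, chr9:64084242-64084294, plus strand: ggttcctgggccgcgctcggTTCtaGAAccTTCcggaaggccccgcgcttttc
Hsph1, chr12:10427312-10427364, plus strand: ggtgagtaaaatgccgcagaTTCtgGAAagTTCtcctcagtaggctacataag

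Markers of fat cells also varied across the rats. Of the 10 measured ones, 7 were lower in the loaded legs of rats 43, 53 and 55 (70.0%, against 16.9% of all genes). The fat cell hormone Adipoq read 5.18, 8.40, 7.64 and 8.44 in the unloaded legs of rats 41, 43, 53 and 55 and 6.10, 6.50, 6.17 and 5.77 in the loaded legs. The mean of the 10 measured adipocyte markers ran from 6.49 to 7.31 in unloaded and from 6.42 to 6.73 in loaded legs, lowest among unloaded legs in rat 41. Of these 7, 4 were higher in rat 41 and 3 (Plin1, Cfd and Lep) were lower there too. Lep was below the array medians, as were the loaded-leg means of Cidec (5.84) and Pck1 (5.96). Aqp7, a glycerol channel, went another way (-0.99, -0.80, 1.76 and 0.13). Rat 41 also had little Chrna1, the α subunit of the muscle acetylcholine receptor, at 10.30 in the unloaded and 8.60 in the loaded leg, against 12.61 to 13.42 in the other unloaded and 12.65 to 13.32 in the other loaded legs. Haemoglobin β (Hbb) was highest in the loaded leg of rat 41, at 10.92 against 8.02 to 9.37 in the other 7 legs. The part of these features in the difference between rat 41 and the others was not tested.

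Slow-fibre genes differed between the legs in opposite directions in the 2 pairs of rats. The mean of 12 slow-fibre contractile genes was 9.72 and 9.95 in the unloaded legs of rats 41 and 43 and 8.75 and 9.34 in their loaded legs. In rats 53 and 55 it was 9.36 and 8.92 in the unloaded and 11.08 and 10.61 in the loaded legs. The loaded leg was thus lower in rats 41 and 43 (-0.97 and -0.61) and higher in rats 53 and 55 (1.72 and 1.69). Of the 12 genes, 10 showed this sign pattern, which 7.83% of all genes showed.

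Myh7, the slow myosin heavy chain, read 11.30, 10.29, 9.76 and 9.25 in the unloaded and 10.05, 9.93, 12.47 and 11.44 in the loaded legs. Myh2, the myosin of fast oxidative fibres, split the same way, with differences of -1.04, -1.98, 2.89 and 2.35. Myh4, the myosin of the fastest fibres, split the other way (0.36, 1.47, -1.29 and -0.45), while Myh1 was higher in the loaded leg of every rat (0.09, 0.36, 0.37 and 0.76, adjusted p = 0.346). For Myh7 the mean difference of 0.82 had a standard error of 1.11, and for Myh2 the mean of 0.56 had one of 1.00. Such spread was not confined to this window, since the mean of the slow-fibre list differed between legs by -3.65 to 3.22 in the 13 rats of 6 h to 4 d and by -2.35 to 3.04 in the 6 rats of 9 to 14 d.

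**Figure D3:**
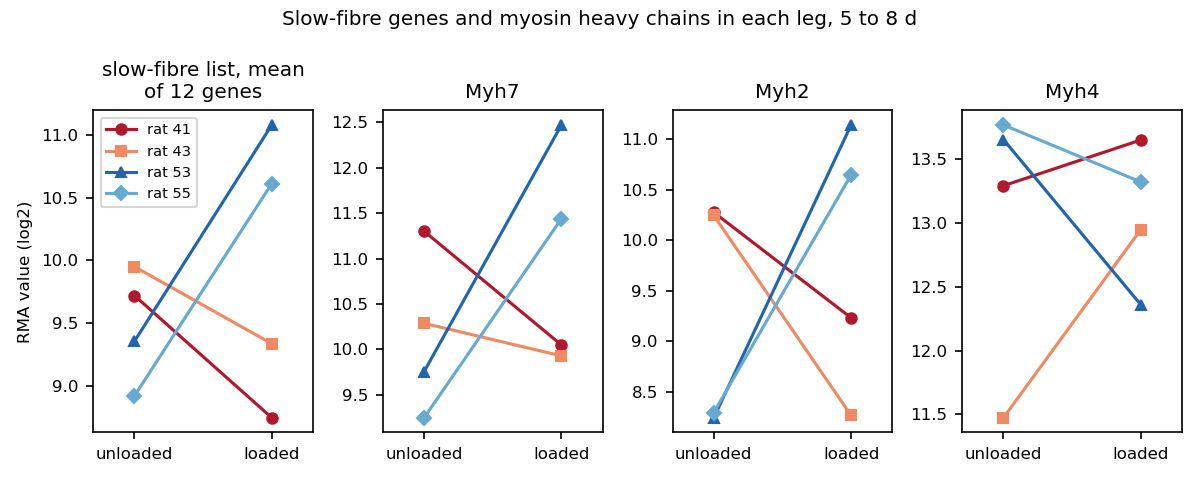
Log2 RMA values in the unloaded and loaded leg of each rat for the mean of 12 slow-fibre genes and for Myh7, Myh2 and Myh4, each on its own vertical scale. Lines join the legs of 1 rat. The slow-fibre mean and Myh2 are lower in the loaded leg in rats 41 and 43 and higher in rats 53 and 55, and Myh4 runs the opposite way.

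The difference between the pairs of rats was tested as the leg difference of rats 53 and 55 minus that of rats 41 and 43. By this test 51 genes passed (0.549%), 15 with the higher leg difference in rats 53 and 55 and 36 (0.388%) with the lower one. Between the date codes and the unknown durations of the rats the test cannot choose, since these cannot be told apart. None of the 12 slow-fibre genes was among the 51 (adjusted p 0.216 for Mybpc1 and higher for the others). The Z-disc gene Ldb3 was, at 0.25, -0.93, 1.16 and 1.41 in rats 41, 43, 53 and 55 (adjusted p = 0.0134). So were the endothelial lipase Lipg (-0.95, -0.17, 1.39 and 1.27), the sarcoglycan gene Sgcd (-0.49, -0.57, 0.62 and 1.07), and the alanine aminotransferase Gpt (-0.44, -0.13, 0.58 and 0.80).

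In the opposite direction, Insig1, which restrains sterol synthesis, read 0.74 and 1.03 in rats 41 and 43 and -0.54 and -1.34 in rats 53 and 55. The proteasome subunit Psmd4 followed that pattern (0.27, 0.42, -0.32 and -0.75), as did the kinase gene Pim1 and Socs6, a suppressor of cytokine signals. The leg differences of 35 of the 51 genes were positive in rats 41 and 43 and negative in rats 53 and 55, and 14 had the reverse pattern, as a selection on this difference favours. Of the 36 measured proteasome genes, 13 were higher in rats 41 and 43 and lower in rats 53 and 55, as were 14.9% of all genes. The count of 51 was 170 without rat 41, 8 without rat 43, 56 without rat 53 and 0 without rat 55. For the mean leg difference of rats 53 and 55, 35 genes passed (0.377%), 14 higher and 21 lower. For that of rats 41 and 43, 0 did, with 1131 (12.2%) at an unadjusted p under 0.05. Both come from the fit of all 46 arrays, whose error pools the spread of all 23 rats.

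Some genes of fuel use had the sign pattern of the slow-fibre genes. In fatty acid uptake and oxidation, 11 of 31 genes were lower in rats 41 and 43 and higher in rats 53 and 55, among them Fabp3, the fatty acid binding protein of oxidative muscle (-0.59, -0.39, 1.05 and 1.68), and Decr1. Of 57 respiratory chain and ATP synthase genes, 13 had that sign pattern too (22.8%, against 7.83% of all genes). Another 8 were higher in all 4 rats (14.0%, against 5.63% of all genes) and 0 lower. The list's median was 0.09, and it was -0.09 in rat 43. Examples of the 8 were Cox4i1 (0.03, 0.11, 0.35 and 0.41) and Uqcrc1 (0.10, 0.06, 0.50 and 0.19), which did not pass (adjusted p = 0.717 and 0.705). In the citric acid cycle 4 of 19 genes (21.1%) were higher in all rats and 0 lower, and 3 (15.8%) had the slow-fibre sign pattern. Pdk4, a kinase that turns off pyruvate oxidation, was at -0.05, -0.74, 0.02 and -0.58.

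Of 60 cytosolic ribosomal protein genes, 14 (23.3%, against 5.86% of all genes) were lower in all 4 rats and 1 was higher, with a median of -0.09. Rps26 was lower in every rat, at -0.29, -0.21, -0.26 and -0.33 (SE 0.07, adjusted p = 0.204), and its loaded legs all lay below its unloaded legs, as for 58 of all genes (0.624%). Several probe sets of Rps26, Rps2 and Rps15a were kept, and related copies cannot be told apart there.

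**Figure D4:**
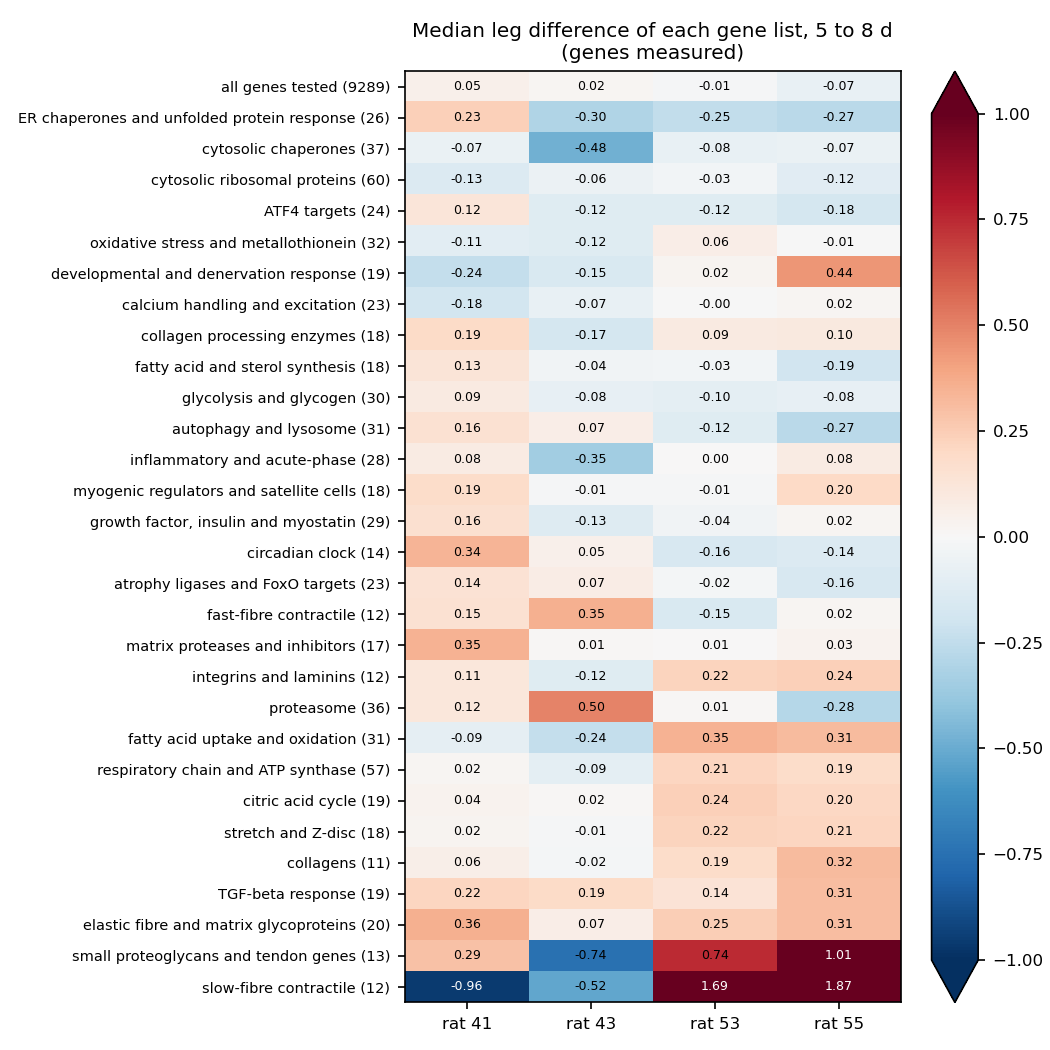
Median leg difference (loaded minus unloaded, log2) of each of 29 gene lists in each rat, with all tested genes in the top row and the number of measured genes in brackets. Colours end at -1 and 1. The TGF-beta and elastic fibre lists are positive in all 4 rats, the endoplasmic reticulum list is negative in rats 43, 53 and 55, and the slow-fibre list changes sign between rats 41 and 43 and rats 53 and 55.

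Genes of paralysed and wasting fibres did not share 1 direction. Of 19 genes of the developmental and denervation response, 0 were higher and 2 (Mymk and Rapsn) lower in all 4 rats (10.5% lower, against 5.86% of all genes). Mymk was flat in rat 43 and differed most in rat 55 (-0.11, -0.0007, -0.27 and -1.40). The receptor subunits Chrna1 (-1.70, -0.78, -0.01 and 0.71) and Chrng, the fetal γ subunit (-0.77, -3.11, 0.05 and 0.77), were lower in rats 41 and 43 and higher in rat 55. Myog, the transcription factor myogenin, differed by -0.44, -0.02, -0.10 and 0.19. Dok7, an activator of the receptor-clustering kinase MuSK, was -0.13 in rat 41 and 0.50, 0.83 and 0.84 in the others. It did not pass over the 4 rats (0.51, adjusted p = 0.271) and passed without rat 41 (0.72, adjusted p = 0.0217).

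The atrophy ligases Fbxo32 (0.21, 0.41, -0.13 and -0.15) and Trim63 (0.30, 1.52, -0.13 and -0.35) were higher in the loaded legs of rats 41 and 43 and lower in those of rats 53 and 55. Their level was high in every leg, with group means of 13.2 and 13.3 for Fbxo32 and of 12.5 and 12.8 for Trim63. Of the 23 measured genes of their list, 1 was higher and 3 lower in all 4 rats (4.35% and 13.0%, against 5.63% and 5.86% of all genes). Fst, follistatin, which binds and blocks myostatin, read 6.90, 7.31, 7.54 and 7.64 in the unloaded and 6.85, 8.60, 8.97 and 9.23 in the loaded legs. It did not pass over the 4 rats (1.06, adjusted p = 0.280) and passed without rat 41 (1.43, adjusted p = 0.0378). The stretch-induced gene Ankrd1 was split by rat as well (-0.40, 1.65, 0.59 and 1.46).

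Between windows, the leg difference of 0 genes differed from that at 6 h to 4 d (0%, 557 at an unadjusted p under 0.05) and of 0 from that at 9 to 14 d (0%, 248 or 2.67% at an unadjusted p under 0.05). Without rat 41, 8 genes differed from 6 h to 4 d. The windows share no rats. Over the 9289 genes, mean leg differences at 5 to 8 d correlated at r = 0.50 with those at 9 to 14 d and at 0.12 with those at 6 h to 4 d, across genes that are not independent.

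For C3h15orf48 the difference was 0.07 (SE 0.16) at 6 h to 4 d, 1.50 (SE 0.28) at 5 to 8 d and 0.89 (SE 0.23) at 9 to 14 d. Mfap4 gave 0.23, 1.39 and 0.96 in the same order, and Prrg4, a transmembrane protein, gave 0.10, 1.33 and 0.88. These genes were named for their values at 5 to 8 d, which favours the largest value there. For C3h15orf48 the adjusted p for the difference from 6 h to 4 d was 0.419. Ccn2 gave 0.75, 0.65 and 1.32, and Rbm3 gave 0.75, 1.39 and 1.32, and neither passed at 6 h to 4 d (adjusted p = 0.164 for Ccn2 and 0.206 for Rbm3). Ccn2 passed at 9 to 14 d (adjusted p = 0.0465). Myo1g, a myosin of blood cells, and Vldlr were lower at 5 to 8 d only in value, at 0.15, -0.69 and -0.10 for Myo1g and -0.03, -0.68 and 0.11 for Vldlr. Their adjusted p for the difference from 6 h to 4 d was 0.419 and 0.462, so no such difference was established at this number of rats.

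**Figure D5:**
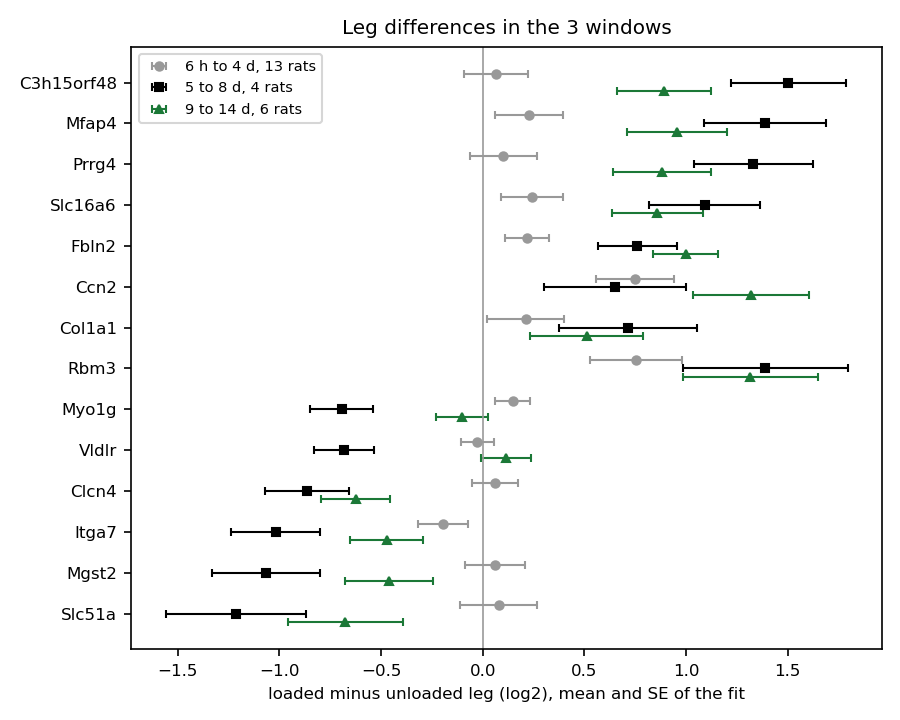
Leg differences (loaded minus unloaded, log2) of 14 named genes in the 3 windows, as mean and standard error of the fit over 13, 4 and 6 rats. For C3h15orf48, Mfap4, Prrg4 and Slc16a6 the 5 to 8 d value is the largest and the 6 h to 4 d value is small (0.23, SE 0.17, for Mfap4). For Myo1g and Vldlr the 5 to 8 d value lies furthest from 0, and Myo1g at 6 h to 4 d lies on the other side (0.15, SE 0.09). These genes were named for their values at 5 to 8 d, which favours a value far from 0 in that window.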

How the data were processed

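The authors made the deposited log2 values with RMA, per the submitters' processing notes (version not stated), which corrects background and quantile-normalises, which can hide a shift shared by most genes. No detection calls were used here, and the number of arrays limits the precision. Of 26208 probe sets, 15088 have 1 symbol in the platform annotation. A probe set was kept if above its array's median on at least 4 of 46 arrays (14834), and the brightest stood for its gene (9289 genes). Genes with a group mean below the array medians are uncertain in size.

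All 46 arrays entered 1 fit in limma 3.58.1 (R 4.3.3; functions lmFit and eBayes; two-sided p adjusted by Benjamini-Hochberg; threshold 0.05), tested on simulated data, with the rat as a fixed block and 1 leg effect per window. Every adjusted p comes from limma. Odd unloaded legs were paired with the next loaded leg. This pairing was checked by removing group means and correlating the legs of a rat across genes, which gave 0.64, 0.41, 0.62 and 0.39 in rats 41, 43, 53 and 55, and each leg correlated best with its own partner in 4 of 4 rats. The date codes were compared by a contrast added after seeing the data.

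Named were, among genes of 1 direction in 4 of 4 rats, the 12 with the smallest p and the 8 with the largest difference each way, up to 4 such genes per list, the 4 with the smallest p in each contrast of windows, and 20 set genes. Of the other genes named, those passing without a rat or between date codes, and list members given as counter-examples, were chosen after their values were seen. The members and the 29 gene and 12 marker lists were chosen with earlier results of these data known. Alternatives were array weights, cyclic loess, other filters, no or a random block, robust variances, averaged probe sets, fewer arrays, single date codes and leaving out each rat.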

Additional observations from a re-analysis of the deposited data

Results flagged for a closer look

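In 10 of the 127 named genes, the leg difference of 1 rat stood apart from those of the other 3 by more than Dixon's limit for 4 values, where chance alone marks about 1 in 20 groups. Rat 43 stood apart for Camk2b (0.94), Sucla2 (0.45), Psmb5 (0.26), Acta1 (0.15) and Stip1 (-1.05). Rat 55 stood apart for the myogenic factor Myod1 (1.25), Pgk1 (0.42) and Col5a3 (0.18). Rat 41 stood apart, on the low side, for Hspb6 (0.14), and rat 53 for Abcc9 (0.0512). The leg differences of 51 genes differed between rats 53 and 55 and rats 41 and 43, by a test of that difference in limma.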

How the results depend on the processing

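The count of genes passing over the 4 rats was 0 and became 1182 with array weights, which here do not measure array quality. It was 4 with the rat as a random replicate block, 5 with the slow-fibre covariate and 35 within rats 53 and 55. It ran from 0 (without rat 53 or 55) to 60 (without rat 41) on leaving out a rat. Without the replicate block it was 0. Against 6 h to 4 d, 0 genes became 526 with weights and 1 with arrays of both windows alone, and 0 to 8 on leaving out a rat. Against 9 to 14 d, 0 became 5 with weights. Between the pairs of rats, 51 became 24 with the 5 to 8 d arrays alone (22 higher, 2 lower), 25 with no filter, 0 with no replicate block, 12 with the random block and 7 with the covariate, and 0 (without rat 55) to 170 (without rat 41) on leaving out a rat. Cyclic loess split them into 23 higher and 27 lower, against 15 and 36. The causes were not tested. Of 127 named genes, 10 changed sign under some setting. With weights these were Fbxo32 (-0.068), Mstn (-0.32), Myh4 (-0.88), Pmepa1 (-0.24) and Trim63 (-0.015). Within rats 41 and 43 they were Myh2 (-1.51) and Myh7 (-0.81). Within rats 53 and 55 they were Abcb1b (-0.040), Chrna1 (0.35), Fbxo32 (-0.14), Mstn (-0.38), Myh4 (-0.87), Myog (0.045), Pmepa1 (-0.12) and Trim63 (-0.24). Leaving out a rat gave -0.020 to 0.17 for Fbxo32, -0.22 to 0.21 for Mstn, -0.22 to 1.40 for Myh2, -0.46 to 0.46 for Myh4, -0.19 to 0.023 for Myog, -0.14 to 0.38 for Pmepa1 and -0.061 to 0.56 for Trim63. With 4 rats and no known durations, absence of a passing gene does not show that the legs were alike. Values of genes below the array medians are compressed.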

Other observations

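Some genes that passed without rat 41 were not described above, and those given here were chosen after their values were seen. The cholesterol transporter Npc1 measured 10.55, 10.40, 11.66 and 11.86 in the unloaded and 11.07, 9.73, 10.34 and 10.42 in the loaded legs of rats 41, 43, 53 and 55, and fell by 1.14 without rat 41 (adjusted p = 0.00528). The lysosomal peptidase Tpp1, the glycoprotein hydrolase Aga and the vesicle protein Cd63 fell as well, while Npc1 was the only 1 of the 31 measured genes of the autophagy and lysosome list to pass. Nos1, the neuronal nitric oxide synthase of the fibre membrane, fell by 1.50 (adjusted p = 0.0280) and was higher in the loaded leg of rat 41 (1.08). Clu, the secreted chaperone clusterin, fell by 1.37, with 12.27 in the unloaded leg of rat 43 against 9.05 to 9.42 in the other unloaded legs.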
